A study of Mus musculus with 2 samples.

Results

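The nuclear genes of the respiratory chain were examined in Cajal-Retzius (CR) cells, the Reelin-secreting neurons along the hippocampal fissure, at postnatal day 14. The members were the genes whose symbol starts with Nduf (complex I), Sdh (complex II), Uqcr (complex III), Cox4 to Cox8 (complex IV) or Atp5 (complex V). There were 98 such genes among the 32285 genes of the count tables, with 47 in complex I, 8 in complex II, 8 in complex III, 18 in complex IV and 17 in complex V. The rule used gene names and no measured value of a gene, but the set was chosen with earlier results of these data known. The control library came from 4 pooled ΔNp73-Cre; Cicflox/+; tdT mice (3 males and 1 female) and the knockout library from 4 pooled ΔNp73-Cre; Cicflox/flox; tdT littermates (2 males and 2 females). Both groups carry the Cre driver of the ΔNp73 lineage and the tdT reporter, and the control has 1 floxed Cic allele, so it is a conditional heterozygote and not a wild type. Hippocampal cells that were tdT+ and DAPI- were sorted and captured on the 10X Chromium, which tags each captured RNA molecule with a unique molecular identifier (UMI). With 1 library per genotype, no difference between genotypes has a replicate check. Intervals below are exact 95% intervals for counting error only, and no p-values were computed.

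The respiratory chain passes electrons from NADH through complex I, or from succinate through complex II, to complexes III and IV, and the proton gradient that results drives ATP synthesis by complex V. Most subunits are encoded in the nucleus and imported, whereas a small set in complexes I, III, IV and V is encoded in mitochondrial DNA. Complex II is wholly nuclear and is also an enzyme of the citric acid cycle. Neurons meet most of their energy demand by oxidative phosphorylation. The nuclear genes are known for promoters that hold sites of NRF1, of ETS factors such as GABPA, of YY1 and of SP1, but no single factor serves all of them.

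The promoters of the members were searched for those sites, and 3 stretches of 100 bases before the RefSeq start are shown, picked as stated next. Ndufa11 and Uqcrh had, in complexes I and III, the highest smaller ratio of the 2 libraries (Pcp4-high over Pcp4-low cells, below) among members with an NRF1, ETS or YY1 match in these bases and a RefSeq start within 10 bases of the GENCODE start. Atp5e had the highest such ratio of all members with a RefSeq entry. Each is written 5′ to 3′ on the strand of its gene, with the motif match in capitals (build GRCm38.p6). Ndufa11, at chr17:56717662-56717761 on the plus strand, holds overlapping NRF1 matches (GCGCANGCG, on both strands). Uqcrh, at chr4:116075071-116075170 on the minus strand, holds an ETS match (CCGGAAGT, here on the opposite strand). Atp5e, at chr2:174464102-174464201 on the minus strand, holds an SP match (GGGCGG).
Ndufa11: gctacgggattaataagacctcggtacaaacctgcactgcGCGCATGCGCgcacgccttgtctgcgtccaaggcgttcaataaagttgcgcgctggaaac
Uqcrh: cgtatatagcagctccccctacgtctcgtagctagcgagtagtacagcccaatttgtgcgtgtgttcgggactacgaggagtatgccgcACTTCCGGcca
Atp5e: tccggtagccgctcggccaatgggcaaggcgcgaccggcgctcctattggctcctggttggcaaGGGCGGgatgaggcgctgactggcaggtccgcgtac
Across the members, 81 promoters matched a RefSeq entry by symbol or, for 2 of them, by synonym. In windows from 250 bases before to 50 bases after the start, the NRF1 letters were in 23 of the 81 (28.4%), against 6.48% of 27025 promoters of the mouse genome. The YY1 letters (AAGATGGCG) were in 7 (8.64%, against 1.49%), the ETS letters in 5 (6.17%, against 4.01%) and the SP letters in 39 (48.1%, against 36.0%). Letters of the Cic repressor (TGAATGAA, TGAATGGA, TCAATGAA or TCAATGGA) were in 2, Cox8a and Ndufc1 (2.47%, against 3.90% of all promoters). By complex, the NRF1 letters were in 10 of 41 promoters of complex I, 4 of 7 of complex II, 2 of 5 of complex III, 1 of 13 of complex IV and 6 of 15 of complex V. A match is a description of these letters and not a bound site. The members with no entry included Atp5a1, Atp5mpl, Cox4i1, Cox4i2, Cox6a2, Cox6c, Cox8c, Ndufa2, Ndufa4l2, Ndufaf6, Ndufb9, Ndufs1, Sdhc, Uqcrb, Uqcrc2 and Uqcrq.

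Cells were taken as barcodes with at least 2000 UMIs and at least 5 UMIs of Reln. This kept 1003 of 1011 control barcodes and 390 of 406 knockout barcodes of that depth, and no cell barcode was shared by the libraries. The cells were then split by Pcp4, a calmodulin-binding protein gene, into those with at least 10 Pcp4 UMIs per 10000 (Pcp4-high, 71 control and 25 knockout cells) and the rest (Pcp4-low, 932 and 365 cells). All 9 CR markers (Reln, Trp73, Lhx1, Lhx5, Ebf3, Calb2, Cacna2d2, Ndnf and Nhlh2) had UMIs in all 4 groups of cells, and their summed level was 12806 to 15470 UMIs per 1000000 (CPM). Reln was the highest marker in each group, at 5800.5 to 8517.3 CPM. Its presence was fixed by the rule for cells, so this sum is no independent check of their identity. The defining GABAergic genes Gad1, Gad2 and Slc32a1 were at or near 0, with at most 1.20 CPM for the whole list of 8 in any group. Barcodes of 20 to 100 UMIs, termed faint, numbered 29040 in the control library and 75813 in the knockout and hold too few UMIs to be taken as cells here. The control held many more barcodes of over 100 and under 2000 UMIs (49610, against 606 in the knockout), and the faint barcodes had a median of 89 UMIs in the control library and 44 in the knockout. CPM and shares below are of UMIs outside mitochondrially encoded genes and genes starting with Rpl, Rps or Mrp. Cic itself was at 56.3 CPM in control and 50.8 CPM in knockout Pcp4-low cells (ratio 0.901, 0.727 to 1.11). These 3′ counts may lie outside the floxed exons and then do not check the deletion. The paper reports that most, but not all, hippocampal CR cells of this knockout line had lost CIC protein. The knockout library may thus hold cells that kept it, and these were not told apart here. The Cic targets Etv4 (2.25 and 72.3 CPM) and Etv5 (15.8 and 76.7 CPM) were higher in the knockout library.

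The members took a larger part of the RNA in Pcp4-high than in Pcp4-low cells of both libraries. The study of these cells had already reported mitochondrial terms for the markers of a cluster high in Pcp4, so this contrast is not independent of it. They made up 0.826% of UMIs in control Pcp4-low cells and 2.77% in control Pcp4-high cells. In the knockout the shares were 0.905% and 2.95%. The ratio of Pcp4-high over Pcp4-low was thus 3.36 (3.30 to 3.41) in the control library and 3.26 (3.18 to 3.34) in the knockout. Over all 8301 and 5226 genes with at least 100 UMIs the median ratio was below 1, at 0.912 and 0.864, whereas over the 84 and 80 members with as many it was 4.16 and 4.34.

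Single cells followed the pooled values. The share of a cell ranged from 0.119% to 4.90% (median 0.758%) in control Pcp4-low cells and from 0.495% to 5.78% (median 2.71%) in control Pcp4-high cells. In the knockout it ranged from 0.279% to 3.27% (median 0.812%) and from 1.45% to 6.28% (median 2.69%). The groups overlapped at their edges. Of the control Pcp4-high cells, 61 of 71 were above the 95th percentile of the Pcp4-low cells (1.36%), as were 24 of 25 in the knockout (above 1.476%), whereas 18 of 932 and 8 of 365 Pcp4-low cells reached 2%.

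**Figure D1:**
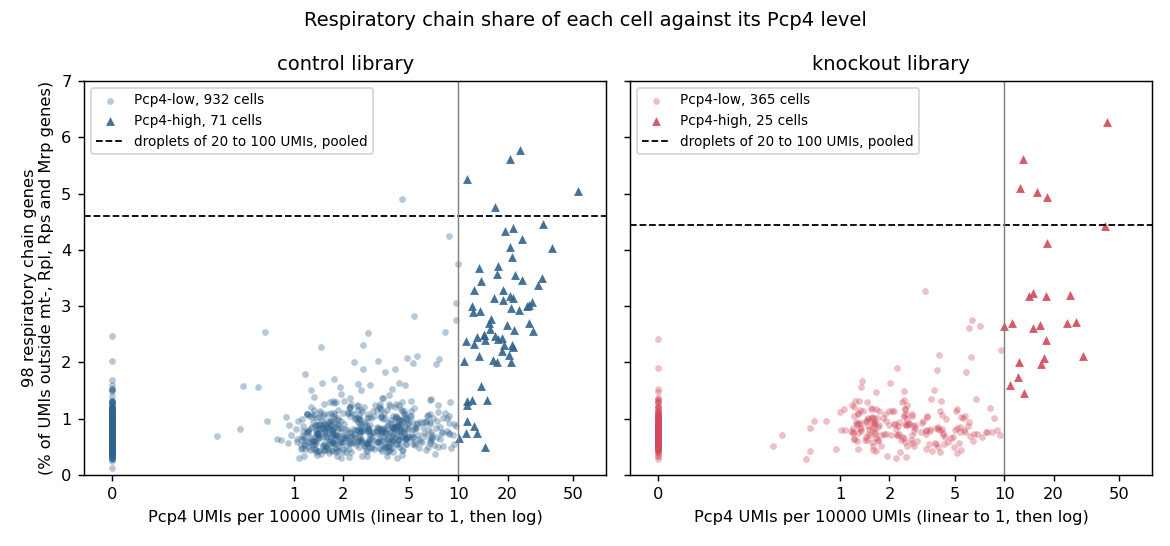
Each point is a cell of the control (left) or knockout library (right), with its Pcp4 UMIs per 10000 on the horizontal axis and the percent of its UMIs from the 98 respiratory chain genes on the vertical axis. Circles are Pcp4-low and triangles Pcp4-high cells, the vertical line marks 10 and the dashed line the pooled share of droplets of 20 to 100 UMIs (4.61% and 4.44%). Most triangles lie above 2%, and 11 of 71 control and 4 of 25 knockout Pcp4-high cells lie below it.

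The pooled share was higher in bins of more Pcp4, apart from the last bin of the knockout, with the largest step at 10 per 10000. Control cells without a Pcp4 UMI had 0.737% of UMIs in members, those above 0 and under 5 per 10000 had 0.828%, and those from 5 to under 10 had 1.15%. The next bins had 2.21% (10 to under 15), 2.85% (15 to under 20) and 3.22% (20 or more). In the knockout the same 6 bins had 0.781%, 0.896%, 1.39%, 2.75%, 3.14% and 3.07%. The median cell of the bin from 5 to under 10 was at 0.857% in the control library and 0.837% in the knockout, near the medians of the bins below it, and its highest cell was at 4.24% and 2.76%. The median cell of the bin from 10 to under 15 was at 2.21% and 2.65%. Within the Pcp4-low cells the Spearman correlation of the share with Pcp4 was 0.145 in the control library and 0.14 in the knockout.

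Several other measures moved with Pcp4. The median cell held 6097 UMIs in control Pcp4-low and 13502 in control Pcp4-high cells (6452 and 14095 in the knockout). Mitochondrially encoded UMIs were 3.16% and 1.80% of all UMIs in the control library and 3.81% and 2.13% in the knockout. The nuclear-retained transcripts examined (Malat1, Meg3, Miat, Kcnq1ot1, Rian and Mirg) made up 7.40% and 3.38% in the control library and 7.26% and 3.52% in the knockout. Ribosomal protein genes had higher ratios than the members, at 1.44% and 7.66% of all UMIs in the control (ratio 5.33) and 1.30% and 7.48% in the knockout (ratio 5.76), and proteasome genes below them (ratios 2.12 and 2.04). In the faint barcodes Pcp4 was higher still (3282 and 2927 CPM, against 2103 and 2067 CPM in Pcp4-high cells). Markers of other cell types were low in both groups of cells: the summed level of each of 12 lists was at most 107 CPM in Pcp4-low and at most 77.1 CPM in Pcp4-high cells. The granule markers moved with Pcp4 in the control, from 21.1 to 56.6 CPM (2.68, 1.87 to 3.78), and were at 31.7 and 33.0 CPM in the knockout (1.04, 0.481 to 2.02). The highest single genes were Slc1a2 of the astrocyte list (96.0 CPM), Rgs5 of the mural list (81.6 CPM) and Cspg4 of the OPC list (80.8 CPM). The part of these measures in the result was not tested. Among cells of 6000 to 12000 UMIs the control ratio was 3.31, from 13 Pcp4-high cells, and the knockout ratio was 2.34, from 3.

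By gene, 80 members had at least 100 UMIs in the Pcp4-low and Pcp4-high cells of each library, and 63 of them were at least 2-fold higher in Pcp4-high cells in both libraries, where 12.1% of all 5214 genes were. None was at least 2-fold lower, where 4.09% of all genes were. A gene could pass through either group, and among the 73 members with at least 100 UMIs in the Pcp4-low cells alone of each library, a limit added after seeing the data, 57 were at least 2-fold higher, where 9.48% of all such genes were. By complex, the counts are of the 80 members, some of which passed only with their UMIs in Pcp4-high cells. They were 17 of 17 in complex V, 10 of 11 in complex IV and 7 of 8 in complex III. Complex I had 27 of 40 and complex II 2 of 4. Counts by complex under the limit in Pcp4-low cells alone were not made. The ratios of the 80 members in the 2 libraries had a Spearman correlation of 0.917. The cells of the libraries are different, but the points share the chemistry and the definition of the groups. The complexes did not stand at one level. Summed over its genes, complex V had ratios of 4.76 (4.61 to 4.92) and 4.89 (4.64 to 5.14), complex III 4.43 (4.2 to 4.68) and 4.84 (4.45 to 5.25), complex IV 3.86 (3.73 to 3.999) and 3.67 (3.48 to 3.88), complex I 2.60 (2.54 to 2.66) and 2.42 (2.33 to 2.52) and complex II 2.07 (1.87 to 2.28) and 2.10 (1.80 to 2.45). With genes placed by prefix, the intervals of these sums for complexes I and II lie below those for complexes III, IV and V in both libraries. The complex I sum holds Ndufa4, an abundant gene placed there by its prefix but now counted in complex IV. The part of this placing in the gap was not tested, so the order of complexes I and IV is given for this grouping only. The median ratio over genes that passed was 3.31 and 3.446 for complex I and 4.619 and 4.43 for complex IV. For the accessory subunits of complex I it was 4.397 and 4.301, near complex IV. Complex I, with Ndufa4, gave 51.5% of the member UMIs in control Pcp4-low cells and 39.9% in Pcp4-high cells (52.3% and 38.9% in the knockout). Complex V gave 18.7% and 26.6% (17.7% and 26.6%).

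**Figure D2:**
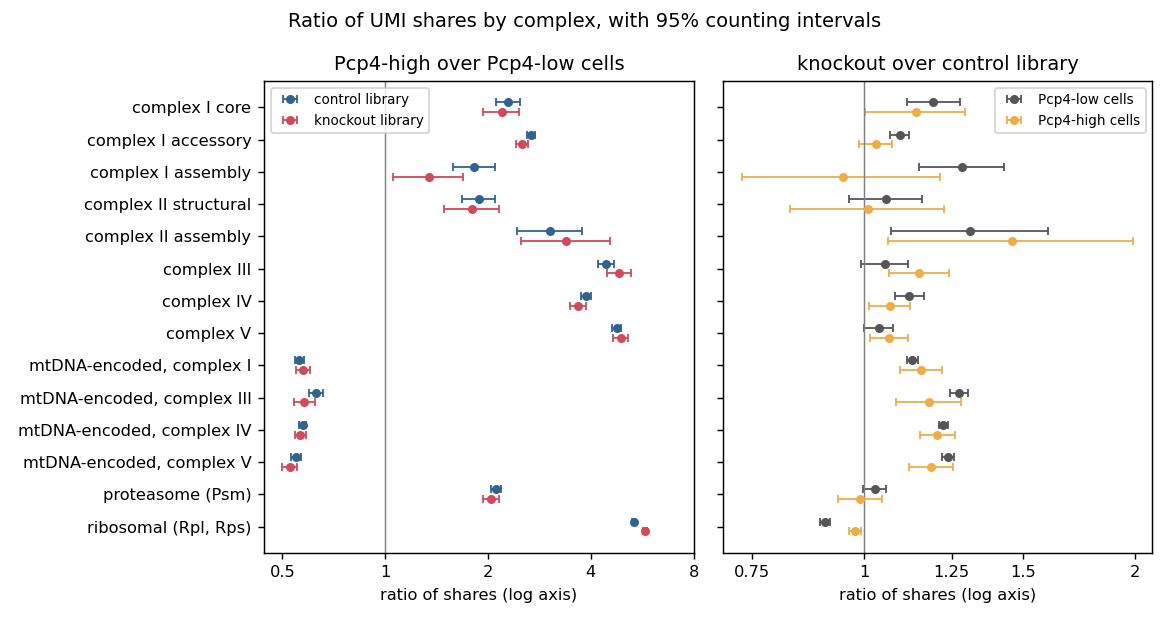
Ratios of UMI shares (log axes) of Pcp4-high over Pcp4-low cells in each library (left) and of knockout over control in each group of cells (right), for parts of each complex, the mitochondrially encoded subunits, proteasome genes and ribosomal protein genes, with bars for the 95% counting interval. On the left, all nuclear parts of the complexes lie above 1, from 1.34 for the complex I assembly factors of the knockout to 4.89 for complex V, and the mitochondrially encoded subunits lie between 0.525 and 0.627.

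Complex I was the least uniform. Its 7 core subunits, which carry the electron path, had a summed ratio of 2.29 (2.12 to 2.48) in the control library and 2.19 (1.94 to 2.47) in the knockout. The lowest was Ndufs1, the largest iron-sulfur subunit, at 104 CPM in control Pcp4-low and 80.7 CPM in control Pcp4-high cells, and at 117 and 66.0 CPM in the knockout. Its ratios of 0.773 (0.591 to 0.996) and 0.565 (0.340 to 0.889) were below 1 in both libraries. Its span of 33.2 kb overlaps Eef1b2 and Ino80dos on the other strand. Ndufs7, an iron-sulfur subunit, was next at 1.89 and 1.54. Ndufv2 of the NADH-binding module was highest in the core, at 51.5 and 195 CPM in the control library and 52.8 and 231 CPM in the knockout, with ratios of 3.79 (3.11 to 4.61) and 4.38 (3.23 to 5.90). Ndufs8, another iron-sulfur subunit, followed at 3.20 and 2.92.

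Among the accessory subunits of complex I, which surround the core, 22 of the 31 that passed were at least 2-fold higher in both libraries. Ndufa13 was at 417 and 410 CPM in the control library and 494 and 505 CPM in the knockout (ratios 0.982, 0.874 to 1.101, and 1.02, 0.858 to 1.21). It overlaps Yjefn3 on the same strand, so its reads cannot be assigned with certainty, and it is the 1 member with a same-strand overlap. Ndufc2 was at 359 and 394 CPM in the control library and 417 and 340 CPM in the knockout (1.098, 0.974 to 1.24, and 0.816, 0.659 to 1.00). These 2 genes and Ndufa4 make up a large part of complex I in Pcp4-low cells. Ndufa4, which is named for complex I but is now counted as a subunit of complex IV, was at 793 and 1080 CPM in the control library and 820 and 964 CPM in the knockout (1.36, 1.27 to 1.46, and 1.18, 1.04 to 1.33). By the smaller ratio of the 2 libraries, the highest were Ndufa7 and Ndufb4. Ndufa7 was at 49.9 and 322 CPM and at 54.0 and 330 CPM (6.45, 5.44 to 7.64, and 6.11, 4.67 to 7.99), and Ndufb4 at 37.1 and 231 CPM and at 42.6 and 334 CPM (6.24, 5.11 to 7.62, and 7.82, 5.89 to 10.4). Ndufa11, whose promoter is shown above, had ratios of 2.25 (1.98 to 2.56) and 1.58 (1.27 to 1.95), and so passed the 2-fold limit in the control alone. Ndufb1-ps, the 1 member not annotated as protein coding, had 474 UMIs in control Pcp4-low cells and ratios of 6.06 and 6.46. Of the 8 assembly factors, which build complex I and are not part of it, Ndufaf2 and Ndufaf7 had enough UMIs in both libraries. Ndufaf2 was at 49.4 and 81.9 CPM in the control library and 65.0 and 46.2 CPM in the knockout, and Ndufaf7 at 45.4 and 47.0 CPM and at 63.7 and 49.5 CPM, so neither was 2-fold higher.

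**Figure D3:**
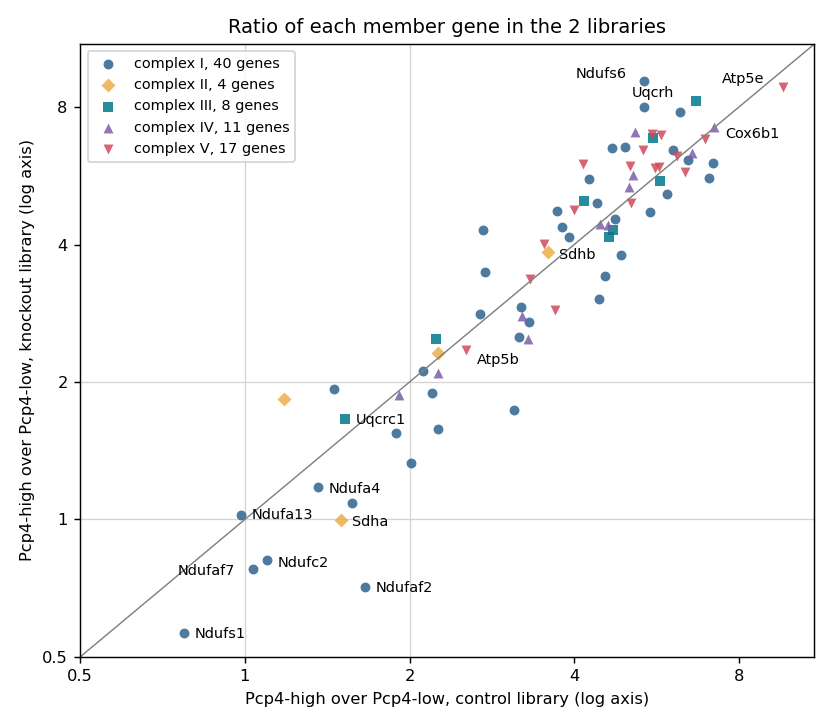
Each point is 1 of the 80 members with at least 100 UMIs in each library, with its ratio of Pcp4-high over Pcp4-low in the control (horizontal) and the knockout (vertical), on log axes, by complex. Grey lines mark 1, 2 and equality. All complex V genes lie above 2 on both axes, up to Atp5e at 9.66 and 8.87, whereas complex I genes extend from Ndufs1, at 0.773 and 0.565, to Ndufs6, at 5.37 and 9.11.

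Complex II is small, and only its 4 structural genes passed in both libraries. Sdhb, the iron-sulfur subunit, was at 40.4 and 145 CPM in the control library and 45.5 and 175 CPM in the knockout (ratios 3.58, 2.85 to 4.48, and 3.85, 2.72 to 5.38). Sdhc, a membrane anchor, was at 31.0 and 69.9 CPM and at 35.7 and 82.5 CPM (2.25 and 2.31). Sdhd, the other anchor, was at 38.8 and 45.8 CPM and at 41.4 and 75.9 CPM (1.18, 0.814 to 1.67, and 1.83, 1.11 to 2.91). Sdha, the flavoprotein that oxidises succinate, was at 141 and 211 CPM and at 142 and 142 CPM (1.499, 1.27 to 1.77, and 0.996, 0.708 to 1.37). The subunits of this 1 enzyme thus differed, with the intervals of Sdha below those of Sdhb in both libraries. Its assembly factors had few UMIs. Sdhaf4 was at 10.2 and 54.2 CPM and at 17.5 and 92.4 CPM, Sdhaf2 at 16.8 and 27.7 CPM and at 21.9 and 39.6 CPM. Sdhaf1 was at 6.76 and 30.1 CPM and at 8.53 and 69.3 CPM, and Sdhaf3 at 14.6 and 34.9 CPM and at 15.4 and 13.2 CPM, the last from 4 UMIs.

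All 8 genes of complex III passed, and 7 were at least 2-fold higher in both libraries. Uqcrh, the hinge protein that contacts cytochrome c1, was highest, at 85.8 and 574 CPM in the control library and 86.5 and 713 CPM in the knockout (6.69, 5.88 to 7.60, and 8.25, 6.79 to 10.0). The small subunits Uqcrq (5.57 and 6.86), Uqcr11 (5.74 and 5.51), Uqcr10 (4.70 and 4.30) and Uqcrb (4.17 and 4.97) had nearby ratios, as did Uqcrfs1, the Rieske iron-sulfur protein (34.1 and 158 CPM, and 35.7 and 149 CPM, ratios 4.62 and 4.16). The pair of large core proteins stood lower. Uqcrc2 was at 69.0 and 154 CPM and at 69.0 and 172 CPM (2.24 and 2.49), and Uqcrc1 at 80.6 and 123 CPM and at 81.6 and 135 CPM (1.53, 1.22 to 1.89, and 1.66, 1.16 to 2.33).

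In complex IV, Cox6b1 was at 63.6 and 459 CPM in the control library and 66.2 and 479 CPM in the knockout (7.22, 6.24 to 8.36, and 7.23, 5.74 to 9.10). By the smaller of its ratios in the 2 libraries, Cox5b followed at 83.2 and 546 CPM and at 79.6 and 505 CPM (6.56 and 6.35). The lowest were Cox6a1, at 107 and 205 CPM and at 125 and 234 CPM (1.92, 1.61 to 2.27, and 1.87, 1.42 to 2.43), and Cox6c, at 339 and 763 CPM and at 410 and 858 CPM (2.25 and 2.09). Several subunits of this complex have tissue isoforms, and in these cells the broadly expressed form of each carried nearly all UMIs. Cox4i1 had 1415 UMIs in control Pcp4-low cells against 3 for Cox4i2, a lung form. Cox6a1 had 617 against 1 for the muscle form Cox6a2, Cox7b had 733 against 6 for Cox7b2, and Cox8a had 1033 against 11 for the muscle form Cox8b. Cox6b1 had 367 against 21 for the testis form Cox6b2, and Cox7a2 had 664 against 30 for the muscle form Cox7a1. Cox8c had 0 UMIs in all cells, which allows a level of up to 0.454 CPM in the control library and 1.08 CPM in the knockout (3 counts). Cox7a1 was the minor form of complex IV with the highest level in Pcp4-high cells, at 5.20 and 33.7 CPM in the control library and 8.12 and 75.9 CPM in the knockout, from 28 and 23 UMIs. The ratios of the major forms were 3.21 and 2.78 for Cox4i1, 4.62 and 4.42 for Cox7a2, 3.29 and 2.49 for Cox7b and 4.46 and 4.43 for Cox8a. Cox7a2l, which joins complexes III and IV in supercomplexes, had 5.17 and 7.04. Ndufa4l2, the paralog of Ndufa4, was at 5.54 and 25.3 CPM in the control library and 11.4 and 26.4 CPM in the knockout.

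Complex V had the highest summed ratios, with intervals that overlapped those of complex III, and its catalytic subunits Atp5b and Atp5a1 were the lowest within it in the control. In the knockout Atp5f1, at 2.88, was below Atp5a1. Atp5b, the beta subunit, was at 224 and 568 CPM in the control library and 251 and 591 CPM in the knockout (2.54, 2.28 to 2.82, and 2.35, 1.98 to 2.78). Atp5a1, the alpha subunit, was at 129 and 429 CPM and at 135 and 456 CPM (3.32 and 3.37). Atp5e, the epsilon subunit of the central stalk, was at 41.9 and 405 CPM and at 45.1 and 400 CPM, and its ratios of 9.66 (8.16 to 11.4) and 8.87 (6.80 to 11.6) made it the member highest in the control. The membrane ring is built of a c subunit that the 3 genes Atp5g1, Atp5g2 and Atp5g3 encode in the same mature form. Their ratios were 6.93 and 6.80, 5.34 and 6.43, and 5.72 and 5.90. Of the UMIs of these 3 genes, Atp5g3 gave 47.5% (44.6% to 50.4%) in control Pcp4-low and 46.3% (43.1% to 49.4%) in control Pcp4-high cells, and 47.3% and 44.5% in the knockout. The intervals of the Atp5g3 share thus overlapped between the cell groups. UMIs are counted at the 3′ end and are not divided by length, so this is a makeup of captured molecules.

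The mitochondrially encoded subunits of the same complexes went the other way. Their share of all UMIs in Pcp4-high over Pcp4-low cells was 0.561 and 0.573 for complex I, 0.627 and 0.580 for complex III (mt-Cytb), 0.573 and 0.564 for complex IV and 0.548 and 0.525 for complex V. For complex V, nuclear UMIs per mitochondrially encoded UMI went from 0.187 to 1.54 in the control library and from 0.156 to 1.38 in the knockout. In the control they went from 0.477 to 2.09 for complex I, 0.176 to 1.18 for complex III and 0.124 to 0.793 for complex IV. In the knockout they went from 0.467 to 1.88 for complex I, 0.145 to 1.15 for complex III and 0.113 to 0.701 for complex IV. Among the other nuclear genes of the pathway, 19 of 53 listed genes had enough UMIs, and 8 were at least 2-fold higher in both libraries and 0 lower, beside 12.1% and 4.09% of all genes. The 8 were Cycs, the mobile carrier cytochrome c (22.0 and 157 CPM in the control), Uqcc2, Cox17, Atpif1, the inhibitor of complex V, the ADP/ATP carriers Slc25a4 and Slc25a5, and the outer membrane porins Vdac1 and Vdac2. Cycs, Uqcc2 and Cox17 had 67, 75 and 71 UMIs in knockout Pcp4-low cells. They passed there only with their UMIs in Pcp4-high cells, where they were high. Of the 10 listed regulators of these genes, only 3 had enough UMIs in both libraries, and 0 of these 3 were at least 2-fold higher in both. Nrf1 was at 91.1 and 43.4 CPM in control cells and 87.3 and 82.5 CPM in knockout cells. Ppargc1a was at 244 and 122 CPM, and at 302 and 201 CPM. Yy1 was instead higher in Pcp4-high cells: its control ratio was 1.53 (1.14 to 2.01) and its knockout ratio 1.81 (1.11 to 2.83). The remaining regulators had too few UMIs to be counted.

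The 80 members that passed in both libraries are short genes, with a median span of 7.72 kb. Across the 80 members the Spearman correlation of span with the ratio was -0.35 in the control library and -0.32 in the knockout, and across 5133 other genes it was -0.54 and -0.44. The other 510 genes of at most the members' median span had median ratios of 2.08 and 1.90, where the 40 members at or below that span had 4.66 in each library and the 40 above it 3.64 and 3.93. The part of length in the result was not tested further. Of the 98 members, 32 overlap another gene and 66 do not. The 5 other genes whose levels over the 6 groups were most like the member sum, among 410 with at least 100 UMIs in each group, were Actg1 (a cytoskeletal actin), Eef1b2 and Eef1g (translation elongation), Ptges3 (a co-chaperone) and Gabarapl2 (autophagy), at Euclidean distances of 0.15 to 0.25 on the log2 scale.

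Within the Pcp4-high cells the shares of most complexes varied together from cell to cell. The Spearman correlation of the shares of complexes IV and V was 0.915 over 71 control cells and 0.910 over 25 knockout cells, and that of complexes I and V 0.901 and 0.93. Complex II followed less, at 0.441 with complex I in the control library and 0.349 in the knockout, with the fewest UMIs of the 5. Within the Pcp4-low cells the correlation of complexes IV and V was 0.379 over 932 cells and 0.320 over 365. The member share of a cell had a correlation of -0.83 with its nuclear-retained share in control Pcp4-high cells (-0.70 in the knockout). In Pcp4-low cells that correlation was weaker, at -0.278 in the control and -0.356 in the knockout. With the mitochondrial share of the cell it was 0.474 in control Pcp4-low cells (0.531 in the knockout), but 0.171 in control Pcp4-high cells (0.103 in the knockout). The points of a library share its depth and free RNA, the shares have UMIs of the same cell as their denominator, and in shallow cells counting error weakens every correlation.

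Between the genotypes, the members differed far less than between the cell groups. Their share in Pcp4-low cells was 0.826% in the control library and 0.905% in the knockout, a ratio of 1.095 (1.08 to 1.11), and in Pcp4-high cells 2.77% and 2.95%, a ratio of 1.06 (1.04 to 1.09). The median ratio in Pcp4-low cells was 1.07 over the 85 members with at least 100 UMIs and 1.01 over all 8976 genes. The ratio in Pcp4-high cells rested on 25 knockout cells and turned below 1 with the Pcp4 limit at 20 (0.952) and in cells of 6000 to 12000 UMIs (0.767, from 3 knockout cells). A median UMI count of 6097 against 6452, a mitochondrial share of 3.16% against 3.81% and a ribosomal protein ratio of 0.904 (0.893 to 0.915) moved with genotype in the Pcp4-low cells. The part of these measures, of the sexes pooled and of the single capture in the difference cannot be told apart from genotype.

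In Pcp4-low cells, 14 of the 85 members were at least 1.25-fold higher in the knockout (16.5%), where 12.8% of all 8974 genes were, and 0 were as far lower, where 8.75% of all genes were. The share of higher members was thus near that of all genes, and it is not a result about the members. The 14 were 11 of the 42 genes of complex I that passed, 2 of 7 of complex II (Sdhaf2 and Sdhaf4) and 1 of 17 of complex V (Atp5f1, subunit b). Complex III had 0 of 8 and complex IV 0 of 11. Ndufs8 was at 42.6 CPM in the control library and 64.6 CPM in the knockout (1.51, 1.23 to 1.86), Ndufs7 at 101 and 135 CPM (1.33, 1.16 to 1.52) and Ndufa11 at 168 and 222 CPM (1.32, 1.19 to 1.47), the 3 highest by the interval bound nearer to 1. All 4 complex I assembly factors that passed were among the 14: Ndufaf4 (20.1 and 30.04 CPM, 1.495, 1.101 to 2.02), Ndufaf7 (1.40, 1.14 to 1.72), Ndufaf2 (1.32, 1.08 to 1.60) and Ndufaf5 (1.25, 0.826 to 1.87), the last with an interval that holds 1. The other 4 had fewer than 100 UMIs and stood on both sides, from 0.807 for Ndufaf3 to 1.72 for Ndufaf8. The complex I core had a summed ratio of 1.19 (1.12 to 1.28), the complex I assembly factors 1.28 (1.15 to 1.43), complex IV 1.12 (1.08 to 1.16), complex III 1.05 (0.992 to 1.12) and complex V 1.04 (0.999 to 1.08). The lowest members by the same rule were Ndufs4 (123 and 103 CPM, 0.836, 0.722 to 0.967), Atp5j (79.9 and 65.4 CPM, 0.818, 0.680 to 0.981) and Cox7a2l (59.2 and 48.3 CPM, 0.815, 0.656 to 1.01). In Pcp4-high cells the summed ratio of knockout over control was 1.14 (1.002 to 1.293) for the complex I core. For the complex I assembly factors it was 0.946 (0.732 to 1.21) there, so they were not higher in both groups of cells.

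**Figure D4:**
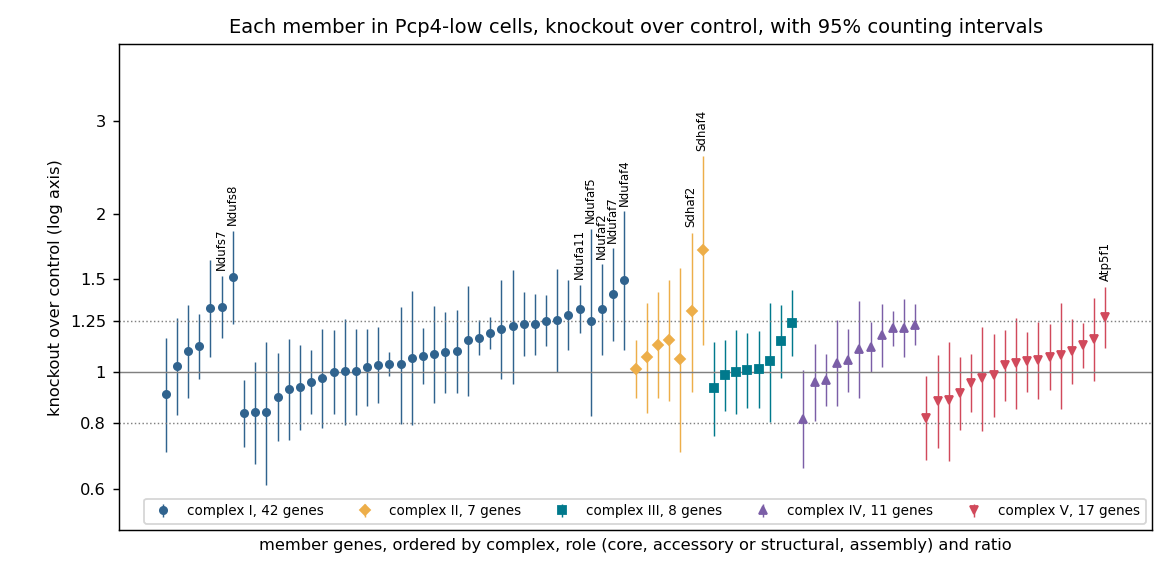
Ratio of knockout over control (log axis) in Pcp4-low cells for the 85 members with at least 100 UMIs, ordered by complex, role and ratio, with bars for the 95% counting interval. Dotted lines mark 1.25 and 0.8, names mark the genes given in the text, and 14 genes lie at or above the upper line, whereas none lies at or below the lower line.

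The summed mitochondrially encoded subunits were also higher in the knockout Pcp4-low cells, at 1.13 (1.11 to 1.15) for complex I, 1.27 (1.24 to 1.30) for complex III, 1.22 (1.21 to 1.24) for complex IV and 1.24 (1.22 to 1.26) for complex V. The single genes did not all go this way. Within complex V mt-Atp6 was at 1.28 (1.26 to 1.30) and mt-Atp8 at 0.886 (0.838 to 0.936), and within complex I mt-Nd2 was at 1.30 (1.27 to 1.34), mt-Nd4 at 1.007 (0.976 to 1.04), mt-Nd4l at 0.984 (0.940 to 1.03) and mt-Nd6 at 0.856 (0.727 to 1.006). Of the 53 other nuclear pathway genes, 41 passed, 12 were at least 1.25-fold higher and 0 as far lower, beside 12.8% and 8.75% of all genes. The 12 included Cyc1, the cytochrome c1 of complex III, at 95.1 and 125 CPM (1.32), the assembly factors Acad9, Nubpl, Timmdc1 and Foxred1 of complex I, and Vdac1, Vdac2, Vdac3 and Slc25a5. The intervals of Foxred1 (1.29, 0.848 to 1.93) and Nubpl (1.49, 0.988 to 2.23) hold 1. So do those of Sco2 (1.307, 0.916 to 1.848) and Tfb2m (1.367, 0.986 to 1.882), which are also among the 12. Slc25a5 was at 43.8 and 69.0 CPM (1.57) and Vdac2 at 59.4 and 82.4 CPM (1.39).

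Of the Pcp4-low, Pcp4-high and faint groups, the faint barcodes had the largest share of members. It was 4.61% in the control library and 4.44% in the knockout, 5.58-fold (5.51 to 5.64) and 4.91-fold (4.84 to 4.98) the share in Pcp4-low cells. This comparison uses the same Pcp4-low cells as the ratio above, so the values are given side by side only. With faint barcodes taken from 10 to 50 UMIs, of which the control had 1276, the ratios were 3.32 and 5.03. Markers of other cells also moved: the summed ependymal or choroid markers went from 4.68 to 70.2 CPM in the control and from 5.28 to 194 CPM in the knockout, and the oligodendrocyte markers from 25.8 to 75.3 CPM and from 35.3 to 155 CPM. The summed CR markers were at 0.366 and 0.416 of their level in Pcp4-low cells. That sum holds Reln, which also selected the cells and went from 8517 to 957 CPM in the control. Of the 9 markers, 5 were higher and 4 lower in the faint barcodes of each library, with median ratios of 1.781 and 1.745. The part of these RNAs in the member share was not tested. Of 90 members that passed, 75 were at least 2-fold higher in the faint barcodes of both libraries, where 25.1% of all 7883 genes were, and 0 were as far lower, where 26.1% of all genes were. Some members, such as Ndufaf8, Cox7a1 and Sdhaf1, passed only through the faint barcodes, where they were high. Among the 73 members with at least 100 UMIs in the Pcp4-low cells of each library, a limit added after seeing the data, 61 were at least 2-fold higher, where 14.7% of all such genes were. With genes placed by prefix, complex V was again highest (8.63 and 8.08), followed by complexes III (7.5 and 6.72), IV (6.61 and 5.74), I (4.01 and 3.45) and II (2.74 and 2.56). Atp5e was at 718 and 648 CPM in the faint barcodes of the 2 libraries, Cox6b1 at 744 and 770 CPM, and Uqcrh at 974 and 912 CPM, each above its level in Pcp4-high cells. Ndufs1 was at 132 and 113 CPM, Ndufa13 at 458 and 437 CPM and Ndufc2 at 436 and 434 CPM, so that these genes differed less between the groups. Complex I, with Ndufa4, gave 37.1% and complex V 29.0% of the member UMIs of the control faint barcodes (36.8% and 29.2% in the knockout). Atp5g3 gave 56.0% (54.7% to 57.4%) of the c subunit UMIs there, above the interval of either group of cells, and 54.9% (53.6% to 56.1%) in the knockout. Mitochondrially encoded UMIs were 0.501% and 0.644% and nuclear-retained UMIs 0.846% and 0.808% of the faint barcodes, below either group of cells. Subtracting the mean UMIs of a faint barcode from every cell left the ratio of Pcp4-high over Pcp4-low cells at 3.54 in the control library and 3.33 in the knockout. The faint barcodes had a median of 89 UMIs in the control and 44 in the knockout, so the amount subtracted differed between the libraries. It left out the 49610 control barcodes of over 100 and under 2000 UMIs, which had a median of 119 UMIs. Larger amounts were not tested.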

How the data were processed

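Single-cell RNA-sequencing of sorted CR cells gave 1 library per genotype. The authors deposited raw counts of UMIs per gene and barcode for every barcode, unfiltered and not normalized (16336796 UMIs in the control, 6777071 in the knockout). The file headers name Cell Ranger 4 and the submitters' processing notes name Cell Ranger 8.0.1 and mm39, whereas the methods of the study name another version and mm10. Whether intronic reads and which strand were counted is not given in the sources used here, so overlapping genes and near-identical copies, for which reads that match several genes may be lost, are uncertain. Counts were summed per group of cells with Python 3.11.15, numpy 2.4.6, scipy 1.17.1 and pandas 2.3.3, and divided by the UMIs outside mitochondrially encoded, Rpl, Rps and Mrp genes. Ratios have exact conditional Poisson intervals and shares exact Clopper-Pearson intervals at 95%. UMIs mark molecules, and the intervals cover counting error only. A gene passed with at least 100 UMIs in the groups compared. Pcp4 and Reln, which define the groups, were left out of the counts over all genes.

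No doublets were removed in the main values. As an alternative, the 8 control cells and 1 knockout cell that Scrublet (in scanpy 1.11.5) scored highest were left out (median score 0.292 against 0.0697 in the control and 0.203 against 0.0630 in the knockout). Genes were named by a rule: all of complexes II and III, tissue isoforms, the 2 highest and 2 lowest ratios of Pcp4-high over Pcp4-low in each part of complexes I, IV and V, the 3 highest and 3 lowest in the knockout, and members at 0. Other examples, such as Ndufs6, Ndufb1-ps and the remaining genes past 1.25-fold, were named after their values were seen. The members and lists were chosen with earlier results of these data known. Positions came from GENCODE M21 (98 of 98 members matched) and promoters from RefSeq, both on GRCm38. The intervals were run on simulated Poisson counts. These hold no variation between cells, mice or libraries, so the run cannot show whether the intervals cover such variation. Alternatives covered cell limits, the Pcp4 limit, the denominator, thinning, depth, free RNA and the choice of members. The values of 1 member are not reported here.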

Additional observations from a re-analysis of the deposited data

Results flagged for a closer look

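The ratio of Pcp4-high over Pcp4-low cells lay on different sides of 1 in the 2 libraries for 5 of the 80 members with at least 100 UMIs in each library, and these belong to complexes I and II. The difference between the libraries was not tested, since each genotype has 1 library. Ndufaf2, an assembly factor of complex I, had 1.66 (1.25 to 2.17) in the control library and 0.711 (0.380 to 1.23) in the knockout, the latter from 14 UMIs in Pcp4-high cells. Sdha had 1.499 in the control library and 0.996 in the knockout. Ndufc2 had 1.098 and 0.816, Ndufaf7 had 1.03 and 0.777, and Ndufa13 had 0.982 and 1.02. Sdhaf3, which had too few UMIs in the knockout to be counted, also differed in side (2.40 and 0.856, the latter from 4 UMIs). For the 5 genes at least 1 of the 2 intervals holds 1.

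Among barcodes of at least 2000 UMIs, which the main values use only with at least 5 Reln UMIs, 16 of 406 in the knockout (3.94%, 2.27% to 6.32%) had fewer than 5, above the 8 of 1011 in the control (0.791%, 0.342% to 1.55%). The members made up 4.18% of their UMIs in the knockout and 7.93% in the control, above the shares of either group of CR cells.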

How the results depend on the processing

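The shares of member UMIs and the counts of members kept their direction under the alternatives run, with 2 exceptions for the knockout over the control in Pcp4-high cells (0.952 with the Pcp4 limit at 20, from 6 knockout and 27 control cells, and 0.767 in cells of 6000 to 12000 UMIs, from 3 knockout cells) and 2 for single members in that range of depth (Ndufa10 at 0.660 in the knockout and Sdhc at 0.887 in the control). The cause was not tested. For single members a change of side was scored only where the main ratio was past the fold limit. Members with ratios nearer to 1 could change side without being counted here. Of the other values, 65 for the shares and counts and 3850 for single members moved by less than the limits set, and 40 and 438 moved by more. For Pcp4-high over Pcp4-low, the ratios in the control and then the knockout were 3.17 and 3.09 with all UMIs as denominator, 2.69 and 2.62 with the Pcp4 limit at 5, 4.16 and 4.34 as the median of member ratios, and 3.55 and 3.52 over members that overlap no other gene, an alternative chosen after seeing the data. The control had 3.54 after subtraction of free RNA, and the knockout 2.85 with the limit at 20, 2.34 in cells of 6000 to 12000 UMIs and 3.63 as the mean over cells thinned to 2000 UMIs. For the knockout over the control in Pcp4-low cells, the ratio was 1.067 with the limit at 5, 1.117 with it at 20, 1.133 after subtraction of free RNA, 1.055 in thinned cells, 1.067 as the median and 1.07 without overlapping members, and thinning gave 1.127 in Pcp4-high cells. For faint barcodes over Pcp4-low cells, the ratios were 5.09 and 4.57 with all UMIs, 5.82 and 5.26 with the limit at 5, 4.78 and 4.13 with it at 20, 5.65 and 4.99 without assembly factors, 5.94 and 5.35 without overlapping members, 3.32 and 5.03 for barcodes of 10 to 50 UMIs, 5.34 and 4.69 for those of 50 to 150, and 7.09 and 6.61 as the median. They were 5.50 in the control with cells of at least 1000 UMIs and 5.09 in the knockout with thinned cells. With at least 300 UMIs a gene, 40 members passed. Of these, 28 were at least 2-fold higher in Pcp4-high cells of both libraries, where 9.84% of all genes were. In the knockout, 34 members were at least 1.1-fold higher (30.5% of all genes were) and 9 as far lower, and 2 were at least 1.5-fold higher (3.03% of all genes) and 0 as far lower. Leaving out a replicate was not run, and no paired analysis was possible because each genotype has 1 library. Barcodes of 10 to 50 UMIs numbered 1276 in the control and 54991 in the knockout.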
